A study of Homo sapiens with 6 samples.

Results

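MYC, its partner MAX and the MXD family of antagonists form a network of transcription factors that share a basic helix-loop-helix leucine zipper domain. MYC binds DNA as a heterodimer with MAX, mostly at the E-box CACGTG, and recruits coactivators. The MXD proteins, MNT and MGA pair with MAX at the same element and bring repressors instead, so the balance between MYC and these antagonists is commonly read as a switch between growth and quiescence or differentiation. FUBP1 takes its name from the far upstream element of MYC, a stretch of DNA ahead of the gene that it binds when the strands come apart, and it is known as a regulator of MYC transcription. The members described here were chosen by gene name: MYC, MYCN, MYCL, MAX, MXD1, MXD3, MXD4, MXI1, MNT and MGA, which are 10 of the 58735 genes in the deposited table.

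RNA-seq was done 48 h after transfection on cells labelled MG63, the name of an established human osteosarcoma line. The siMock group (3 samples) received a negative control siRNA and the siFUBP1 group (3 samples) an siRNA against FUBP1, with no drug or other agent named in the labels. An siRNA is a short RNA duplex, of which the guide strand pairs with a target mRNA and has it cut. The methods do not say which of the FUBP1 siRNAs was sequenced or whether the samples of a group came from separate cultures, so p-values measure the spread between these samples, which may be technical. Total counts were 16889572, 17484313 and 16309900 in siMock 1, 2 and 3, and 16502690, 16499842 and 17073410 in siFUBP1 1, 2 and 3.

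The markers of the labelled cell type were checked first. Of 9 markers of mesenchymal and osteoblast lineage, COL1A2, the second chain of type I collagen, had 0 reads in every sample. SPARC, ALPL and SP7, genes of bone matrix, mineralization and osteoblast fate, had at most 5 reads in any sample. COL1A1 was present at 113 ± 4.68 CPM in siMock (SD, n = 3; counts scaled to library size by TMM), VIM at 149 ± 9.05 and FN1 at 113 ± 11.2. In siFUBP1, COL1A1 stood at 45.5 ± 0.150 CPM, VIM at 194 ± 16.98 and FN1 at 65.5 ± 1.11. Of the 4 lineage markers tested, VIM and RUNX2 were higher and COL1A1 and FN1 lower. RUNX2, the osteoblast master regulator, had 8, 8 and 6 reads in siMock and 73, 97 and 39 in siFUBP1. Among epithelial keratins, looked at after the markers had been seen, KRT8 stood at 1989 ± 154 CPM in siMock and 993 ± 56.8 in siFUBP1, KRT18 at 705 ± 41.7 and 446 ± 11.99, and KRT7 at 966 ± 80.9 and 731 ± 59.6. All of these keratins fell (log2 fold changes −1.002, −0.66 and −0.40, adjusted p = 2.01e-10, 6.02e-08 and 2.56e-04, edgeR), whereas the listed epithelial markers EPCAM and CDH1 stood at 4.04 ± 0.234 and 0.937 ± 0.367 CPM in siMock and did not pass the test. The summed CPM of the 9 lineage markers was 374, 380 and 376 in siMock and 303, 299 and 329 in siFUBP1. Of 10 markers of other cell types, CD3E had 0 reads throughout and EPCAM was the most abundant in both groups. PECAM1, an endothelial marker too low to be tested, had 28 reads over siMock and 2 over siFUBP1. This was a ratio of 13.8 after scaling to total counts without TMM, with an exact counting interval of 3.49 to 120. The sums of the 10 were 15.4, 14.6 and 12.3 CPM against 11.2, 9.74 and 12.4 CPM. CDKN2A, looked at together with the keratins, had 2626, 2234 and 1776 reads in siMock and 4036, 4242 and 3679 in siFUBP1. The samples are therefore named by their labels only. Whether the cells are of the labelled line was not tested, nor was the part of these markers in the results below.

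The knockdown was visible in every sample. FUBP1 had 3872, 4331 and 4282 reads in siMock and 749, 752 and 926 in siFUBP1, and the groups did not overlap. In these bulk libraries, fewer cells with a transcript and less of it per cell cannot be told apart. The log2 fold change of FUBP1 was −2.44 (SE 0.0895, adjusted p = 1.90e-17, edgeR quasi-likelihood test). Sequences of the guide strands of the study's FUBP1 siRNAs are given below because a guide can also lower other mRNAs that match its seed. Guide bases 2 to 8, the seed, are in capitals.
RNAi#1: uAAACUGAaugcgaacacc
RNAi#2: uAAGAGGUuugucagcacc
RNAi#3: uUUCUUCUaugaguugccg
A match to bases 2 to 8 was found in the 3-prime untranslated region of 22.03%, 13.6% and 21.4% of 12555 tested genes for RNAi#1, RNAi#2 and RNAi#3. MYC, MYCN, MYCL, MAX, MXD3, MXI1 and MNT held no match to any of the 3 seeds. MXD1 held 1 match to RNAi#1 and 1 to RNAi#3, MXD4 held 1 to RNAi#3, and MGA held 2 to RNAi#2 and 1 to RNAi#3.

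Network transcripts moved in both directions after FUBP1 knockdown. MYC rose 2.53-fold, MXD1 rose 1.71-fold and MAX rose 1.31-fold, whereas MXD3 fell to 22.6% and MXD4 to 63.1% of the siMock level. MXI1, MNT, MGA and MYCL did not pass the test, and MYCN was too low for it. Of the 9 members tested, 3 were thus higher and 2 lower at an adjusted p below 0.05. With upper quartile scaling, 5 were higher, MNT and MGA being added. The same 5 were higher with a trend on GC content and gene length (both of the gene's longest transcript) removed. In these fits, 5221 and 5185 of all 16116 genes were higher. Without these changes, 30.1% of all 16116 genes tested were higher and 30.1% lower at the same threshold. Calls on the members were thus about as frequent there as calls on any gene. With an absolute log2 fold change above 1 also required, MYC was the only member higher and MXD3 the only member lower, beside 8.16% and 9.13% of all genes. The groups did not overlap in CPM for 5 of the 9 members tested (MYC, MAX, MXD1, MXD3 and MXD4), beside 63.9% of all genes. The median log2 fold change was 0.17 over the 9 members and 0.0020 over all genes tested.

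**Figure D1:**
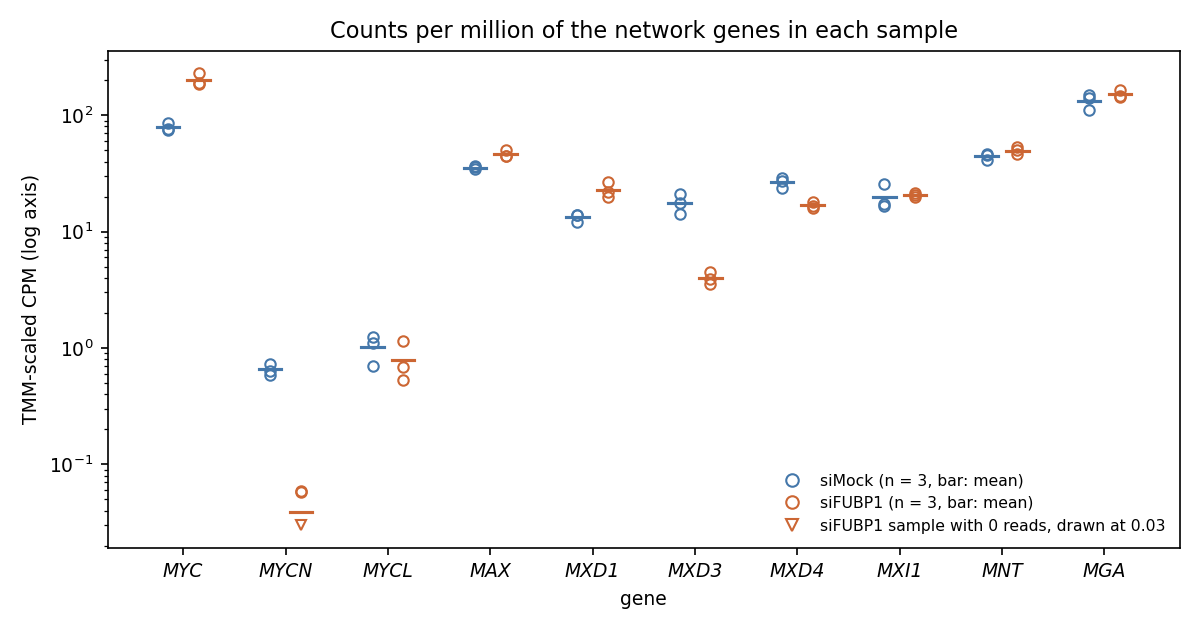
TMM-scaled CPM (log axis) of each of the 10 network genes, with 1 circle per sample and a bar at the mean of 3 siMock (blue) or 3 siFUBP1 (orange) samples. MYC lies between 75.3 and 85.1 in siMock and between 184 and 229 in siFUBP1, MXD3 lies below every siMock value in each siFUBP1 sample, and the siFUBP1 sample with 0 MYCN reads is drawn as a triangle.

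MYC, the proto-oncogene that drives ribosome production, nucleotide synthesis and cell cycle entry, lies on chromosome 8 (ENSG00000136997, forward strand). It had 1389, 1305 and 1175 reads in siMock and 3176, 3968 and 3207 in siFUBP1. After scaling, these were 85.1, 76.8 and 75.3 CPM against 188, 229 and 184 CPM. All siFUBP1 samples were above all siMock samples, and siFUBP1 2 was the highest. The group means were 79.1 ± 5.30 and 200.2 ± 24.9 CPM (SD, n = 3 each), a log2 fold change of 1.34 (SE 0.0878, 95% interval of the fold 2.23 to 2.87, adjusted p = 1.05e-12, edgeR). No other gene was annotated over its exons. PVT1, a long noncoding RNA gene next to MYC that was looked at after the values were seen, rose as well, from 21.8 ± 1.62 to 46.9 ± 4.72 CPM (log2 fold change 1.10, adjusted p = 4.39e-10, edgeR).

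The paralogs of MYC were close to the limit of detection. MYCN, best known from neuroblastoma, lies at chr2:15940564-15947007 on the forward strand. It had 12, 10 and 10 reads in siMock and 1, 1 and 0 in siFUBP1, and it did not pass the filter on low counts. The summed reads were 15.8 times higher in siMock after scaling to total counts without TMM. The exact interval of 4.03 to 136 covers counting error only. Its mean was 0.655 ± 0.0745 CPM in siMock. Filters that keep MYCN do so through the siMock reads alone. With no filter, over 31703 genes, its adjusted p was 1.29e-04 (edgeR). MYCL, first found in small cell lung cancer, lies at chr1:39895426-39902256 on the reverse strand and had 18, 21 and 11 reads in siMock and 9, 20 and 12 in siFUBP1. The groups overlapped, and the log2 fold change of −0.36 had an interval of −1.20 to 0.48 (adjusted p = 0.466, edgeR), so a fall as large as that of MXD4, described below, lay within the interval at this depth. Leaving out 1 sample at a time moved the value from −0.72 without siFUBP1 2 to −0.13 without siFUBP1 1, and MYCL passed the test in none of these fits.

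MAX, the shared partner of the MYC, MXD, MNT and MGA proteins, lies at chr14:65006174-65102695 on the reverse strand. It had 35.6, 36.2 and 34.3 CPM in siMock and 44.6, 50.05 and 44.3 in siFUBP1. The siFUBP1 samples were all higher, again with siFUBP1 2 at the top. The rise of 0.39 on the log2 scale (SE 0.0891, adjusted p = 5.29e-04, edgeR) corresponds to a fold of 1.31 with an interval of 1.15 to 1.49. This interval does not reach that of MYC.

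The MXD genes went different ways. MXD1, which is induced when many cell types differentiate, lies at chr2:69897688-69942945 on the forward strand. It had 226, 236 and 189 reads in siMock and 371, 460 and 344 in siFUBP1. These were 13.8, 13.9 and 12.1 CPM against 21.97, 26.5 and 19.7 CPM, so every siFUBP1 sample was higher. The log2 fold change was 0.77 (SE 0.122, interval 0.52 to 1.02, adjusted p = 4.88e-06, edgeR). Of its 6351 exonic bases, 237 are shared with SNRNP27 on the same strand, for which the log2 fold change was 0.11 (adjusted p = 0.350).

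MXD3, an MXD protein that is unusual in being expressed in cycling cells, lies at chr5:177301461-177312757 on the reverse strand. It had 344, 297 and 223 reads in siMock and 66, 62 and 78 in siFUBP1. These were 21.1, 17.5 and 14.3 CPM against 3.91, 3.58 and 4.47 CPM. The lowest siMock sample was thus well above the highest siFUBP1 sample, although siMock 1 and siMock 3 differed among themselves. The log2 fold change was −2.14 (SE 0.161, interval −2.47 to −1.81, adjusted p = 1.50e-11, edgeR), the largest among the members tested. MXD3 shares 1158 of its 5154 exonic bases with PRELID1 on the opposite strand and 926 with RAB24 on the same strand. The library kit is not a strand-specific one, and reads in shared bases cannot be assigned to either gene. PRELID1 had a log2 fold change of 0.07 (adjusted p = 0.603) and RAB24 rose by 0.70 (adjusted p = 8.22e-04, edgeR). The part of the shared bases in the MXD3 value was not tested.

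MXD4, an MXD protein of resting and differentiated cells, lies at chr4:2247432-2262294 on the reverse strand. It had 27.4, 28.6 and 23.8 CPM in siMock and 15.99, 18.0 and 16.4 in siFUBP1, without overlap. The difference on the log2 scale was −0.66 (SE 0.107, adjusted p = 6.85e-06, edgeR). With a trend on GC content and gene length removed, it was −0.44. MXI1, the fourth MXD gene (also named MXD2), lies at chr10:110207605-110287365 on the forward strand. It had 25.6, 16.6 and 17.4 CPM in siMock and 19.9, 21.4 and 20.8 in siFUBP1. The siFUBP1 samples lay close together between the highest and the other siMock samples. The log2 fold change was 0.06 (interval −0.21 to 0.33, adjusted p = 0.716, edgeR), without siMock 1 it was 0.28 (adjusted p = 0.0479), and without siMock 2 it was −0.055 (adjusted p = 0.768).

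MNT and MGA are the large antagonists that most cells express. MNT, which pairs with MAX or MLX and recruits SIN3, lies at chr17:2384060-2401118 on the reverse strand. It had 45.2, 46.4 and 41.1 CPM in siMock and 49.7, 52.8 and 46.4 in siFUBP1. Only the lowest siFUBP1 and the highest siMock sample met, at nearly the same value. The log2 fold change was 0.17 (interval −0.016 to 0.35, adjusted p = 0.110, edgeR), and with the trend on GC content and gene length removed it was 0.53 (adjusted p = 6.99e-07). MGA, a giant protein with a T-box beside its helix-loop-helix domain and a core of the PRC1.6 repressor complex, lies at chr15:41621224-41773081 on the forward strand. It had 111, 139 and 148 CPM in siMock and 143, 147 and 164 in siFUBP1. The groups overlapped, with siMock 1 lowest. The log2 fold change was 0.19 (interval 0.0028 to 0.38, adjusted p = 0.0746, edgeR), so it did not pass. Leaving out 1 sample at a time moved it from 0.072 without siMock 1 (adjusted p = 0.495) to 0.27 without siMock 3 (adjusted p = 0.0161). With the trend removed it was 0.32 (adjusted p = 1.74e-04, edgeR), and with the replicate number as a block it was 0.20 (adjusted p = 0.0113, edgeR).

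**Figure D2:**
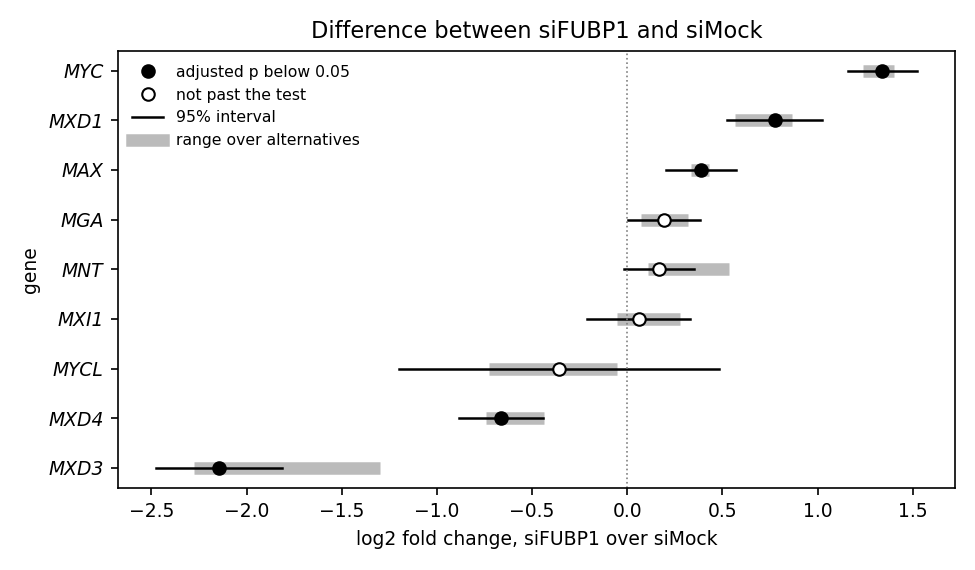
Log2 fold change of siFUBP1 over siMock for the 9 network genes tested, with the 95% interval (line), the range over all fits tried (grey band) and filled circles for an adjusted p below 0.05. Over their whole band, MYC, MXD1, MAX, MNT and MGA lie above 0 and MXD3, MXD4 and MYCL below 0. Only the band of MXI1 crosses 0. MNT, MGA, MYCL and MXI1 did not pass the test in the fit shown by the circles.

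Levels were compared between genes per length, by the deposited FPKM, where the length is that of all annotated exons of a gene. For MXD3, 1158 and 926 of its 5154 bases are shared with PRELID1 and RAB24. How the order, shares and ratios below would change with another length was not tested. In siMock, MYC was the highest member at 26.0 ± 1.75 FPKM (SD, n = 3), followed by MAX at 7.90 ± 0.238, MGA at 7.43 ± 1.08 and MNT at 5.01 ± 0.326. Then came MXI1 at 4.26 ± 1.06, MXD4 at 3.73 ± 0.357, MXD3 at 3.38 ± 0.655 and MXD1 at 2.07 ± 0.163, with MYCN and MYCL at 0.249 ± 0.0281 and 0.198 ± 0.0544. Neighbours whose ranges overlapped in this order were MAX and MGA, MNT and MXI1, MXI1 and MXD4, MXD4 and MXD3, and MYCN and MYCL. In siFUBP1, MYC stood at 66.3 ± 8.47 FPKM, MAX at 10.4 ± 0.763, MGA at 8.53 ± 0.627, MNT at 5.65 ± 0.382 and MXI1 at 4.46 ± 0.174. MXD1 at 3.56 ± 0.555 was now above MXD4 at 2.37 ± 0.156 and MXD3 at 0.768 ± 0.085, and no neighbours overlapped.

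Per sample, MYC supplied 44.3%, 42.2% and 43.1% of the summed FPKM of the 10 members in siMock and 64.3%, 66.7% and 63.2% in siFUBP1. The sum itself was 60.2 ± 2.99 FPKM in siMock and 102 ± 10.2 in siFUBP1. MXD1, MXD3, MXD4, MXI1, MNT and MGA together gave 25.9 ± 1.165 FPKM in siMock and 25.3 ± 0.986 in siFUBP1, a difference smaller than either SD, while their makeup shifted. Within the MXD genes, MXD3 supplied 25.0% ± 1.42 of the FPKM in siMock and 6.93% ± 1.14 in siFUBP1, and MXD1 supplied 15.5% ± 1.42 and 31.8% ± 2.97. The ratio of the summed MYC genes to the summed antagonists was 1.06, 0.986 and 1.02 in siMock and 2.55, 2.89 and 2.41 in siFUBP1. The ratio of MYC to MAX was 3.30 ± 0.208 and 6.37 ± 0.335. These sums are over mRNA per length and are descriptions, with no test, since MYC dominates them.

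**Figure D3:**
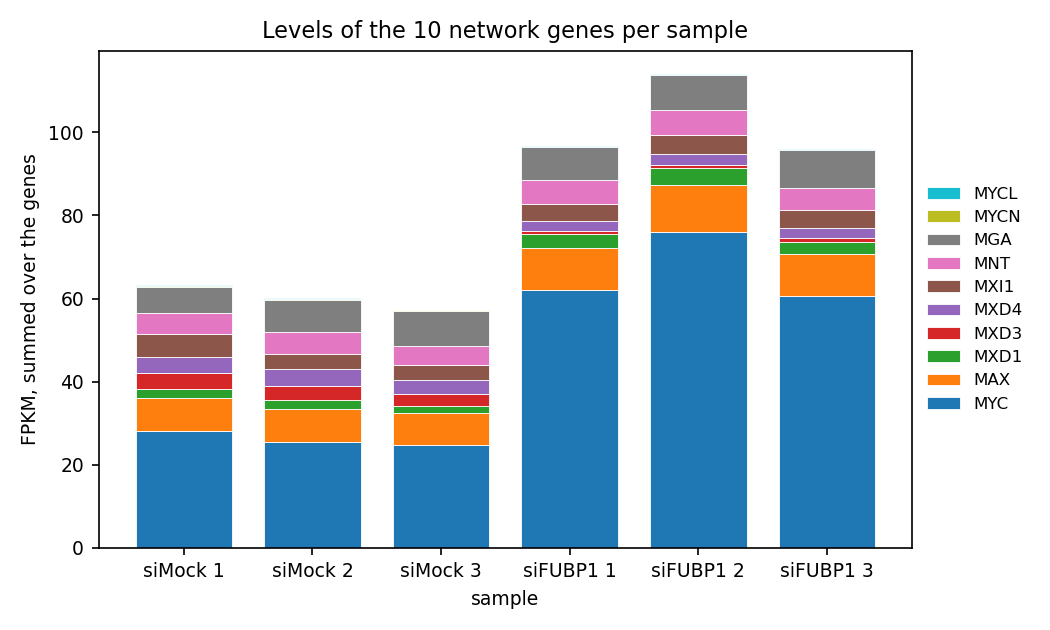
FPKM of the 10 network genes stacked for each of the 6 samples. The MYC segment grows from 24.7 to 28.0 FPKM in siMock to between 60.7 and 76.0 in siFUBP1, while the segments of the antagonists together keep a similar height and the MXD3 segment shrinks.

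The promoters of the members were examined for the E-box that MYC, MAX and MXD dimers bind. RefSeq windows of 250 bases upstream of the start were matched by symbol for 9 of the 10 members (14 windows, build GRCh38.p14), and MYC itself was not examined. CACGTG, which reads the same on both strands, was found in MXD4 at 238 bases and in MNT at 193 bases before the start. It was present in 6.34% of 35116 windows of this length and in 7.73% of 27305 genes. The stretches are shown on the strand of the gene, with the E-box in capitals.
MXD4, chr4:2262300-2262359, reverse strand: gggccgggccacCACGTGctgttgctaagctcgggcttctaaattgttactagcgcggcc
MNT, chr17:2401221-2401280, reverse strand: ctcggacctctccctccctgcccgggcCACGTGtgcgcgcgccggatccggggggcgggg
MXD4 fell and MNT did not pass the test, as given above. A match is a description of these letters and not evidence of binding.

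The proteins that act on the far upstream element were examined next. Of the 6 genes listed, 3 were lower, 0 were higher and 3 did not pass the test, beside 30.1% of all genes lower and 30.1% higher, the shares that stand beside each list given next. FUBP1, the target of the siRNA, is 1 of the 3 lower. The median log2 fold change was −0.29. With the trend on GC content and gene length removed, 4 were lower and 2 higher, so that each of them was called. In that fit, 4790 of all 16116 genes were lower and 5185 higher. Besides FUBP1 itself, PUF60, also known as the FUBP-interacting repressor, fell by 0.52 on the log2 scale (SE 0.0824, adjusted p = 4.99e-06, edgeR). It had 146, 143 and 121 CPM in siMock and 93.7, 91.7 and 101 in siFUBP1. ERCC3, the XPB helicase of TFIIH through which FUBP1 and PUF60 act, fell by 0.52 as well (115 ± 4.17 to 80.3 ± 1.64 CPM, adjusted p = 1.37e-06, edgeR). ERCC2, the other helicase of TFIIH, had a log2 fold change of −0.05 (adjusted p = 0.623). FUBP3 and KHSRP, the paralogs of FUBP1, had log2 fold changes of −0.05 and −0.00087 (adjusted p = 0.614 and 0.994), at 113 ± 5.99 and 205 ± 10.8 CPM in siMock.

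The parallel branch built on MLX, which pairs with MNT, MXD1 and MXD4 and with the glucose sensors MLXIP and MLXIPL, split as well. Of 5 genes tested, 2 were higher and 1 lower, or 2 lower without siMock 3 or without siFUBP1 2. All genes lower in those fits numbered 4754 of 16647 and 4561 of 16614. MLX rose from 54.4, 57.5 and 56.3 CPM to 77.1, 79.1 and 76.0 (log2 fold change 0.47, SE 0.0793, adjusted p = 1.47e-05, edgeR). Of its 4259 exonic bases, 770 are shared with PSMC3IP on the opposite strand. TXNIP, the best known target of MLX dimers and a brake on glucose uptake, rose from 243, 242 and 236 CPM to 506, 444 and 382 (log2 fold change 0.88, SE 0.0879, adjusted p = 2.67e-09, edgeR). ARRDC4, its arrestin relative with the same kind of promoter element, did not pass the test at −0.19 (adjusted p = 0.123). MLXIP, also called MondoA, fell by 0.41 (SE 0.0811, adjusted p = 9.62e-05, edgeR), and MLXIPL, or ChREBP, was at −0.30 (adjusted p = 0.276). Among 8 tested factors of the same domain class outside the network, 3 were higher and 4 lower. MITF and TFAP4 rose by 0.65 and 0.57 on the log2 scale, TFEB and SREBF1 had log2 fold changes of −0.68 and −0.62 and were lower, and SREBF2 was at 0.17 (adjusted p = 0.0522, edgeR).

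Of 15 coactivators of MYC, 4 were higher, 2 lower and 9 not past the test, with a median log2 fold change of −0.02, beside 30.1% of all genes in each direction. With the trend on GC content and gene length removed, 8 were higher, beside 5185 of the 16116 genes tested. RUVBL1, a DNA helicase of the TIP60 and INO80 complexes, rose by 0.78 (SE 0.0754, adjusted p = 1.49e-09, edgeR). ACTL6A, an actin-like subunit of chromatin remodelers, rose by 0.39. TRRAP, the scaffold through which MYC recruits histone acetyltransferases, was lower at −0.69 (SE 0.0884, adjusted p = 2.06e-07, edgeR), and HCFC1, a host cell factor that binds MYC, was lower at −0.32.

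Among 18 genes that control the stability of MYC protein, 5 were higher, 5 lower and 8 not past the test. With the trend on GC content and gene length removed, 8 were higher, beside 5185 of the 16116 genes tested. FBXW7, the F-box protein that marks phosphorylated MYC for degradation, rose from 13.4 ± 3.23 to 23.7 ± 2.24 CPM (log2 fold change 0.83, adjusted p = 1.28e-05, edgeR), and GSK3B, the kinase that makes its recognition site, rose by 0.62 (adjusted p = 1.36e-07). AURKB, a mitotic kinase, rose by 0.83 (adjusted p = 2.91e-08). BTRC, an F-box protein that opposes FBXW7 on MYC, was lower at −0.65 (adjusted p = 6.32e-07, edgeR). HUWE1, a ubiquitin ligase for MYC and MIZ1, was lower at −0.29 (adjusted p = 0.00924, edgeR), although its groups overlapped in CPM. MYC protein was not measured in these files.

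The corepressors that MXD proteins and MNT recruit showed 3 higher, 4 lower and 3 not past the test among 10. SAP30, a SIN3 complex subunit, rose from 8.42 ± 1.84 to 17.9 ± 2.00 CPM (log2 fold change 1.08, adjusted p = 3.99e-07, edgeR), and ZBTB17, or MIZ1, through which MYC itself represses genes, rose by 0.48 (adjusted p = 1.25e-04). SUDS3, another subunit of the SIN3 complex, was lower at −0.38 (adjusted p = 6.44e-04, edgeR). Of 9 subunits that sit with MGA in PRC1.6, 5 were higher and 2 lower, beside 30.1% of all genes in each direction. The 5 became 2 with the trend on GC content and gene length removed, beside 5185 of 16116 genes. Without siMock 2 they became 2 as well, beside 4447 of 16613 genes. RNF2, the ubiquitin ligase of the complex, rose by 0.62 (adjusted p = 1.07e-05, edgeR), and CBX3, PCGF6 and YAF2 rose by 0.28, 0.28 and 0.30, whereas L3MBTL2 was lower at −0.61 (adjusted p = 1.08e-05, edgeR).

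Genes known from other cells as induced by MYC moved in both directions while MYC mRNA was higher. Of 45 listed, 43 were tested, and 18 were higher (41.9%), 11 lower (25.6%) and 14 not past the test, beside 30.1% of all genes in each direction, with a median log2 fold change of 0.09. HK2, the hexokinase that commits glucose to glycolysis, rose from 53.8, 49.0 and 49.96 CPM to 151, 167 and 163 (log2 fold change 1.66, SE 0.0803, adjusted p = 2.99e-15, edgeR). IMPDH2, the rate-limiting enzyme of guanine nucleotide synthesis, rose from 132, 121 and 122 CPM to 277, 262 and 271 (log2 fold change 1.11, SE 0.0759, adjusted p = 2.34e-12, edgeR). ODC1, the first enzyme of polyamine synthesis and a classical MYC target, moved the other way, from 369, 372 and 377 CPM to 174, 165 and 183 (log2 fold change −1.10, SE 0.0761, adjusted p = 3.15e-12, edgeR). DNPH1, a nucleotide hydrolase, was lower at −0.90, and LDHA, lactate dehydrogenase A and the most abundant gene of the list, was lower at −0.54 (2477 ± 210 to 1705 ± 223 CPM, adjusted p = 2.87e-05, edgeR). CCND2 and BCAT1 had 0 reads in every sample.

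Of 14 genes known as repressed by MYC, 13 were tested, with 5 higher, 6 lower and 2 not past the test and a median of −0.16. CDKN1A, the cell cycle inhibitor p21, fell from 246, 230 and 225 CPM to 40.4, 40.8 and 33.6 (log2 fold change −2.61, SE 0.0875, adjusted p = 3.85e-18, edgeR). CCND1, the cyclin that drives entry into S phase, fell from 214, 233 and 207 CPM to 46.4, 44.1 and 45.1 (log2 fold change −2.27, SE 0.0808, adjusted p = 1.22e-17). GADD45A, a growth arrest gene, rose from 15.5, 14.3 and 11.5 CPM to 106, 142 and 79.6 (log2 fold change 2.99, SE 0.268, adjusted p = 2.13e-04, edgeR), and THBS1, the antiangiogenic thrombospondin, rose from 33.4, 32.9 and 30.9 CPM to 127, 128 and 130 (log2 fold change 1.99, SE 0.0812, adjusted p = 1.30e-16, edgeR). FTH1, ferritin heavy chain, was the most abundant gene of the list and was lower at −0.45. Of its 2030 exonic bases, 1267 are shared with BEST1 on the opposite strand. Neither list moved as a block.

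**Figure D4:**
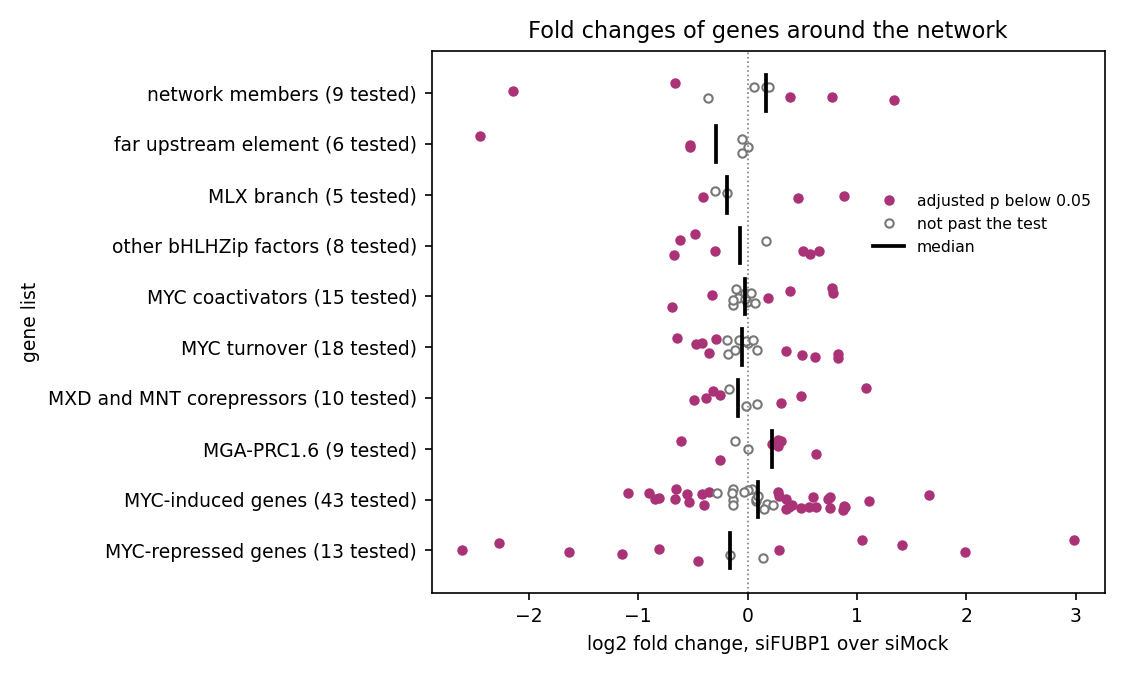
Log2 fold change of siFUBP1 over siMock for each tested gene in 10 lists, 1 point per gene, with a bar at the median and filled points for an adjusted p below 0.05. The list of the far upstream element has called genes below 0 only and a median of −0.29, whereas the other lists have called genes on both sides of 0 and medians between −0.19 and 0.22.

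The profiles most like that of MYC over the 6 samples, by the root mean square difference of centred log2 CPM among 10444 genes averaging 100 counts or more, belonged to AHR (0.0566), RIPK2 (0.0571) and ETS1 (0.0666). AHR, the aryl hydrocarbon receptor, had means of 42.9 CPM in siMock and 107 in siFUBP1. The profiles most like that of MXD3 belonged to ST14 (0.0912), UPK3B (0.111) and PLLP (0.112). ST14, the membrane serine protease matriptase, had means of 159 CPM in siMock and 42.0 in siFUBP1. Likeness here rests mainly on the difference between 2 groups of 3 samples that share their libraries.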

How the data were processed

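RNA of 6 samples labelled MG63 (3 siFUBP1, 3 siMock, grouped by their titles) was sequenced by the authors from poly-A libraries made with a kit that does not keep the strand. Per the labels, the submitters' processing notes name HISAT2 2.0.5, StringTie 1.3.3b, featureCounts 1.5.0-p3 and DESeq2 1.16.1. The read counts per gene were deposited without normalization. The FPKM values deposited by the authors come from these counts, a gene length and library sizes of 0.971 to 1.05 times the totals. The deposited signal columns (group means), log2 fold changes and p-values hold the authors' own comparison and were not used. All 58735 gene identifiers and positions match GENCODE 29 (GRCh38).

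Counts were fitted with edgeR 4.0.16 in R 4.3.3: TMM scaling, edgeR's filter by expression with the group, robust quasi-likelihood fit and F test, and Benjamini-Hochberg adjustment over the 16116 genes tested, with a call at an adjusted p below 0.05. The same code was tested on simulated data. No samples were identical, and replicates differed by a chi-square of 5.87 or more per gene. Intervals of single counts cover counting error only. Gene lists were written from background knowledge. Named genes are the members, the proteins of the far upstream element, the MLX branch and, per other list, the 4 called genes with the largest change (mean of at least 50 counts) and the most abundant gene. Genes outside this rule are identified where they appear, and 2 genes that the rule names are not reported here. Members and lists were chosen with earlier results of these data known, so no list is independent evidence. Exonic bases shared with other genes are given for some named genes only. Others share them on the opposite strand too, among them RUVBL1 (344 of 6860 with SEC61A1, 370 with EEFSEC). CCND1 shares 497 of 4830 with LTO1, and CBX3 shares 368 of 4641 with HNRNPA2B1. Seeds were matched to the 3-prime untranslated region of 1 GENCODE transcript per gene. Alternatives used other scalings, filters and thresholds, DESeq2 1.42.0, and limma 3.58.1 on log2(FPKM + 1) and log2(FPKM + 0.1). Others were removal of a trend on GC content and gene length, the replicate number as a block and omission of each sample. GC content and gene length in that trend are those of the longest GENCODE transcript of each gene.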

Additional observations from a re-analysis of the deposited data

How the results depend on the processing

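Over the 16 fits tried, each with all genes, MYC kept a log2 fold change of 1.24 to 1.40 and MAX of 0.33 to 0.43, MXD1 of 0.57 to 0.87, MXD4 of −0.74 to −0.44 and MXD3 of −2.28 to −1.30, and all of these passed the test in 16 of 16. The smallest MXD3 value came from limma on log2(FPKM + 1), a scale that compresses low genes. MYCL passed in 0 of 16. MXI1 turned to −0.048 with the trend on GC content and gene length removed, −0.055 without siMock 2 and −0.029 without siMock 3, and passed in 1 fit (0.28 without siMock 1). MGA passed in 5 fits (0.23 with upper quartile scaling, 0.21 without a filter, 0.20 with the replicate block, 0.32 with the trend removed, 0.27 without siMock 3; lowest 0.072 without siMock 1) and MNT in 2 (0.21 with upper quartile scaling, 0.53 with the trend removed). Members called higher therefore numbered 5 with upper quartile scaling or with the trend removed, beside 5221 and 5185 of all 16116 genes. The scaling alternatives moved the median of all genes by at most 0.043. The cause of these shifts was not tested.

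With an absolute log2 fold change above 1 required as well, 1315 genes were higher and 1472 lower. Then 1 member was higher and 1 lower, the far upstream element list had 1 lower, the corepressors had 1 higher and 0 lower, the MYC-induced genes had 2 higher and 1 lower, the MYC-repressed genes had 4 higher and 4 lower, and the MLX branch, coactivators, PRC1.6, turnover and other helix-loop-helix lists had 0 in both directions. With the trend removed, 2 genes of the far upstream element list (with 4 lower), 8 coactivators, 8 turnover genes and 2 PRC1.6 genes were higher. In that fit, 5185 of all 16116 genes were higher. At an adjusted p below 0.01, 3 of 9 PRC1.6 genes were higher, beside 3953 of all 16116 genes. Leaving out siMock 2 gave 2 PRC1.6 genes higher, beside 4447 of all 16613 genes. Without siFUBP1 1, 1 PRC1.6 gene was lower, beside 4452 of 16620 genes. Without siMock 3 or siFUBP1 2, 2 MLX branch genes were lower, beside 4754 of 16647 and 4561 of 16614 genes. 

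The labels share replicate numbers, but the deviations of same-numbered samples correlated at 0.0282, 0.0478 and 0.238, and siMock 1 was most like siFUBP1 2 (0.146), so the numbers were not read as pairs. With the replicate block, MYC was at 1.34 and 2 MLX branch genes were lower, beside 5001 of all 16116 genes. The other counts of members and list genes stayed within 1.5 times. Depth limits MYCN and MYCL, where 3 reads equal up to 0.184 CPM of the total before TMM scaling.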
